A study of Mus musculus with 5 samples.

Results

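Transcripts of the glucocorticoid receptor, its mineralocorticoid relative, their FKBP co-chaperones and well-known target genes were followed in back skin of mice with a mutant *Clock* allele and of their wild-type littermates. The 10 genes, of 18193 with a probe set of their own, were *Nr3c1*, *Nr3c2*, *Fkbp5*, *Fkbp4*, *Tsc22d3*, *Sgk1*, *Zbtb16*, *Ddit4*, *Mt1* and *Mt2*. Every probe set that the annotation of the platform gives to 1 of them alone was taken, which made 25 of the 45101 probe sets on the array. Of these, 21 were bright enough to be tested, and each of the 10 genes had a tested probe set.

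Dorsal skin RNA of 2 *Clock* mutant and 3 wild-type mice, littermates at postnatal day 23, was hybridized to 1 Affymetrix whole-genome expression array per mouse. Histology by the authors placed all 5 mice in telogen, when hair follicles rest, and the methods give the genetic background as C57BL/6J. For immunostaining, the paper used wild-type mice of the same age with follicles in anagen I, the first stage of growth. *Clock* mutant replicate 1 was male, and *Clock* mutant replicate 2 and the 3 wild-type mice were female, so that the females alone allow 1 mutant against 3. In any fit with 1 mutant mouse the spread comes from the wild-type mice and the prior of limma, the lone mutant is assumed to vary like them, and its p is no test of genotype over animals. The mutant allele has a base change that makes splicing skip an exon of *Clock*, is carried by every cell and leaves a protein that binds BMAL1 but activates poorly. For these mice neither the hour of dissection nor hormone levels in blood were given in the sources used here.

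Glucocorticoids such as corticosterone enter the cell and bind the glucocorticoid receptor, which HSP90 and its co-chaperones hold in a form that can take up the hormone. The bound receptor moves to the nucleus, where it activates genes at glucocorticoid response elements and holds back inflammatory genes through other factors. In skin the pathway restrains inflammation and growth of keratinocytes, and glucocorticoids hold back the entry of hair follicles into growth. Secretion of corticosterone follows a daily rhythm set by the circadian clock, and CLOCK itself has been described to acetylate the receptor. The comparison asks how the transcripts of this pathway stood in mutant skin at the age sampled.

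The receptor transcript differed little between genotypes at its brightest probe set, while several induced genes had lower mean signals in *Clock* mutant skin. *Tsc22d3*, which encodes the anti-inflammatory protein GILZ, had the largest difference among the brightest probe sets of the 10 genes, -0.66 on the log2 scale (standard error, SE, 0.128). *Ddit4* followed at -0.47 (SE 0.154), and *Mt1*, *Sgk1*, *Fkbp5*, *Zbtb16* and *Mt2* lay between -0.28 and -0.24. None of the 21 probe sets passed the threshold of 0.05 on the adjusted p of limma, which 24 of all 27022 tested probe sets did (0.0888%), so that what follows gives the size and spread of the values and calls none of them a change. In whole skin, fewer cells of a type and less RNA per cell cannot be told apart.

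Differences are given on the log2 scale throughout, *Clock* mutant minus wild type, with adjusted p-values over all tested probe sets. Signals are MAS5 intensities in the order *Clock* mutant replicates 1 and 2, then wild-type replicates 1, 2 and 3. Of the 21 tested probe sets, 19 had a negative difference, against 53.5% of all tested probe sets. In 8 of them both mutant arrays lay below all 3 wild-type arrays, a pattern found in 15.1% of all tested probe sets, and in 0 of them both lay above (12.8%). At an unadjusted p under 0.05, 11 were lower in the mutant (6.71% of all) and 0 were higher (4.09%), and 3 had an unadjusted p under 0.001, all lower (0.414% lower and 0.133% higher over all). These probe sets are not independent of each other, since several belong to the same gene. The 10 genes were also chosen with earlier results of these data known, so that their counts are no independent test against these shares.

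Taking the brightest probe set of each gene, 9 of 10 genes had a negative difference, against 46.4% of 12955 genes with a tested probe set. In 3 of them, *Fkbp5*, *Tsc22d3* and *Zbtb16*, the mutant arrays lay below every wild-type array (12.3% of genes), and in 7 the groups overlapped. At an unadjusted p under 0.05, 6 were lower (4.78%). The median over the 10 genes was -0.26, against 0.02 over all 12955 genes. Relative to the wild-type mean, that median was -0.22 in the male mutant, -0.21 in the female mutant and -0.06, 0.03 and 0.10 in the wild-type mice. The male mutant was lower than the female mutant in 6 of the 10 genes. By role, the 4 glucocorticoid target genes had medians of -0.51 in the male and -0.25 in the female mutant. Those of the metallothioneins were -0.13 and -0.40, so that the similar medians of the mutants pool roles in which their order differed.

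**Figure D1:**
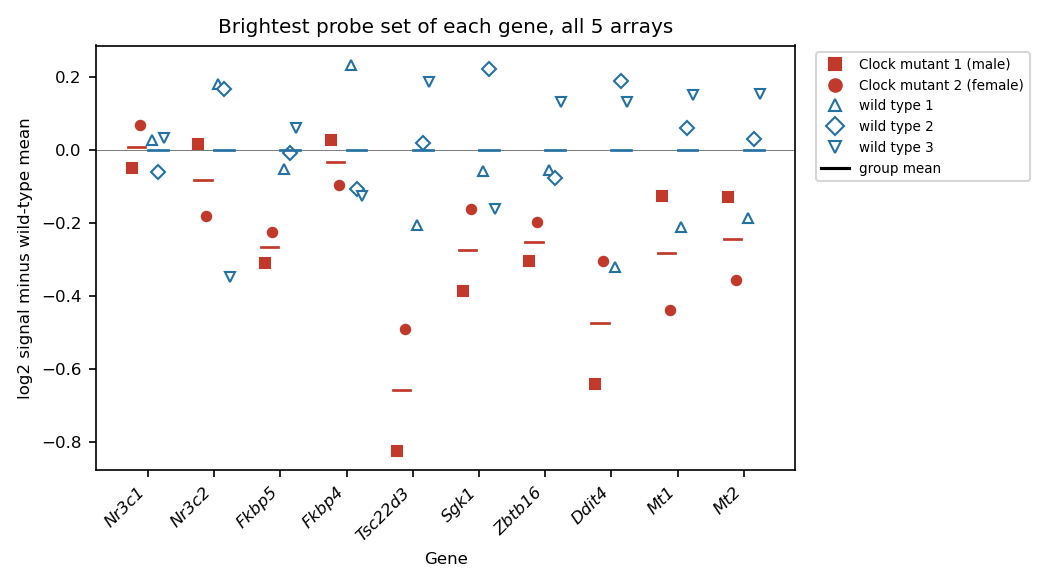
Points give the log2 signal of single arrays relative to the mean of the wild-type arrays (vertical axis) at the brightest probe set of the 10 genes (horizontal axis); filled red points are *Clock* mutant mice (square, male; circle, female), open blue points are wild-type mice and short bars are group means. Both mutants lie below every wild-type mouse for *Fkbp5*, *Tsc22d3* and *Zbtb16*, and the widest gap between group means is that of *Tsc22d3*, -0.66.

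Depth and labels were checked over the series. Median signals of the arrays lay between 105.8 and 117.9, lowest in *Clock* mutant replicate 1, and Pearson correlations between arrays between 0.950 and 0.960. *Clock* itself had signals of 1105 and 1133 in mutant and 1201, 1111 and 1162 in wild-type skin, which does not check an allele that changes splicing. The clock gene *Per3*, which CLOCK activates, had signals of 196 and 247 in mutant and 815, 676 and 591 in wild-type skin (adjusted p = 0.0144). Epidermal and dermal markers were bright on all arrays, with median differences of -0.01 over 7 genes and -0.05 over 5 genes. Single markers differed more. Without overlap of the groups, *Krt1* (0.31) and *Krt5* (0.16) were higher and *Flg* (-0.26) and *Vim* (-0.12) lower in the mutants, while the groups overlapped in the other markers. Of 6 listed blood markers 3 had a probe set of their own and 1 was tested, so that the blood content of the samples stays unmeasured. The hemoglobin gene *Hba-a1* had signals of at most 22.1 and the band 3 gene *Slc4a1* of at most 84.3, and neither was tested. *Alas2*, of heme synthesis in red cells, varied between arrays, with signals of 335 and 644 in mutant and 1122, 381 and 238 in wild-type skin. Of 11 tested hair shaft and root sheath markers 10 were positive, with a median difference of 1.54. At an unadjusted p under 0.05, 7 were higher (5.24% of all genes) and 0 lower (4.78%). They reached from -0.31 for *Lef1* to 3.02 for *Krt25*. Relative to the wild-type mean, their median was 2.08 in the male and 0.76 in the female mutant. In wild-type replicates 1, 2 and 3 it was 0.39, -0.17 and -0.22. Summed signals over the 14 listed were 12297 in the male mutant, 5259 in the female mutant and 3757 to 5154 in wild-type skin. These sums include *Gata3*, at 2715 to 3321 on every array. For the *Gapdh* control, the signal of the 3' probe set over that of the 5' probe set was 1.05 and 0.988 in mutant and 0.860 to 0.955 in wild-type skin, so that the groups did not overlap. For the *Actb* control the ratio was 1.214 and 1.228 in mutant and 1.143 to 1.203 in wild-type skin, again without overlap but with a narrow gap. The part of the hair markers and of these ratios in the results on the 10 genes was not tested. Whether all 5 mice stood at the same point of the hair cycle, given these hair markers, was not tested either.

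*Nr3c1* encodes the glucocorticoid receptor (Entrez 14815, chr18:39410545-39519421 in GRCm38.p6). Its brightest probe set had signals of 3926 and 4255 in mutant and 4139, 3893 and 4155 in wild-type skin. The groups overlapped, and the log2 difference was 0.01 (95% interval -0.17 to 0.18, adjusted p = 0.973). The second brightest, with signals between 2662 and 3081, differed by -0.05 (95% interval -0.25 to 0.15, adjusted p = 0.878). At these probe sets a difference in either direction of more than 0.25 lay outside the interval.

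A dimmer probe set of *Nr3c1* went another way. Probe set 1457635_s_at, whose suffix marks probes that match more than 1 transcript, had signals of 287 and 390 in mutant and 528, 586 and 462 in wild-type skin. Both mutants lay below all wild-type mice, with a difference of -0.64 (SE 0.168, adjusted p = 0.273), and -0.42 in the females alone (adjusted p = 0.76). The other tested probe sets differed by -0.15 and -0.36 with overlapping groups, and a further one was too dim to test, with signals between 25.4 and 56.0. Averaged over its probe sets, *Nr3c1* had a difference of -0.26 (adjusted p = 0.484), so that the value for the receptor depends on the probe set. This average counts each probe set equally, including the untested one and 1453860_s_at, with signals between 45.8 and 99.0. Which transcripts each probe set measures was not tested.

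*Nr3c2* encodes the mineralocorticoid receptor, which binds the same hormones with high affinity (Entrez 110784, chr8:76898083-77245012). Its single probe set was dim, with signals of 169 and 148 in mutant and 190.0, 188 and 132 in wild-type skin. The groups overlapped, and the difference was -0.08 (SE 0.218, 95% interval -0.57 to 0.41, adjusted p = 0.918). The interval is too wide to place its level in either direction.

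The FKBP co-chaperones act on the receptor in opposite ways. FKBP51, encoded by *Fkbp5*, lowers the affinity of the receptor for hormone and is itself strongly induced by glucocorticoids, which makes *Fkbp5* a common readout of receptor activity. FKBP52, encoded by *Fkbp4*, assists hormone binding and transport to the nucleus.

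*Fkbp5* (Entrez 14229, chr17:28398753-28486149) had signals of 3361 and 3569 in mutant and 4022, 4140.2 and 4343 in wild-type skin at its brightest probe set. Both mutants lay below every wild-type mouse, and within each group the arrays lay close together. The mean was 3465 ± 147 (SD, n = 2) against 4168 ± 163 (SD, n = 3), a difference of -0.27 (SE 0.0764, adjusted p = 0.31). Probe set 1448231_at had signals of 819 and 1289 in mutant and 1735, 1714 and 1594 in wild-type skin. Here too the groups did not overlap, and the male mutant stood apart from the female one. The difference was -0.71 (SE 0.167, adjusted p = 0.233), and -0.38 in the females alone (adjusted p = 0.569). Without *Clock* mutant replicate 2, which leaves the male as the only mutant and the spread to the wild-type mice, it was -1.04 (adjusted p = 0.0154). The last probe set was near background, with signals of 5.63 and 6.30 in mutant and 1.01 to 1.38 in wild-type skin, and was not tested.

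*Fkbp4* (Entrez 14228, chr6:128430103-128438656) had signals of 1047 and 962 in mutant and 1207, 953 and 941 in wild-type skin. The mutant values fell inside the wild-type range, with a difference of -0.03 (SE 0.129, 95% interval -0.32 to 0.26, adjusted p = 0.945). Its second tested probe set differed by 0.06 (SE 0.267), and another was too dim to test. The difference between the differences of the co-chaperones was not tested.

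By the mean absolute distance of log2 signals over the 5 arrays, each centred on its own mean, the genes most like the brightest probe set of *Fkbp5* were *AI987944* (0.0159), *Scai* (0.0167) and *Rgl2* (0.0182). The median distance over 12954 genes was 0.167, and 129 genes lay within 0.05. With 5 arrays many genes share such a profile.

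Stretches upstream of the starts of member genes are shown for the motifs they hold. The windows run from 250 bases before to 50 bases after each start in RefSeq (GRCm38.p6). The search covered 15 windows of 8 member genes and left out *Nr3c1* and *Zbtb16*, so that the counts below say nothing about these genes. Both strands were searched for AGAACA, a single arm of the glucocorticoid response element, for the full palindrome, which is that arm, any NNN and the arm on the other strand, so that it holds both arms, for the E-box CACGTG that CLOCK and BMAL1 bind, and for the core of the metal response element, TGCACNC or TGCGCNC. The full palindrome was in 3 of 32851 windows of all genes (0.00913%), 1 of them at *Sgk1*. The single arm was in 19% of all windows and in 4 of the 15, the E-box in 7.15% and in 2, and the metal response core in 25.7% and in 5. Response elements often lie far outside such windows, and a match is a run of letters and no measured binding site. Capitals mark the matches in the lines that follow.
*Sgk1*: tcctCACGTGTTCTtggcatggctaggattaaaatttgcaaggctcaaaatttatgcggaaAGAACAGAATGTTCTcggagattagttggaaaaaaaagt
*Fkbp5*: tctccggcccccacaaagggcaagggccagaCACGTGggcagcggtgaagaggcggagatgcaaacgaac
*Tsc22d3*: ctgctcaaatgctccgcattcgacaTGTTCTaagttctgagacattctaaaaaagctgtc
The *Sgk1* stretch (chr10:21993640-21993739, plus strand) precedes 1 of its 6 starts, with the palindrome beginning 189 bases before that start and an E-box that overlaps a single arm beginning 246 bases before it. The *Fkbp5* stretch (chr17:28486280-28486349, minus strand) holds an E-box 169 bases before the start and was chosen because the groups did not overlap at its brighter probe sets. The *Tsc22d3* stretch (chrX:140600673-140600732, minus strand) holds a single arm 185 bases before 1 of its 3 starts and belongs to the gene with the largest difference.

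*Tsc22d3* is induced directly by the receptor and encodes GILZ, which restrains NF-kB and AP-1 (Entrez 14605, chrX:140539528-140600522). At its brightest probe set the signals were 5276 and 6652 in mutant and 8092, 9470 and 10625 in wild-type skin. Both mutants lay below every wild-type mouse, and the male was the lower of them. The mean was 5964 ± 973 (SD, n = 2) against 9396 ± 1268 (SD, n = 3), a difference of -0.66 (SE 0.128, 95% interval -0.95 to -0.37, adjusted p = 0.158). Probe set 1425281_a_at had signals of 3594 and 5469 in mutant and 7759, 8648 and 9254 in wild-type skin. It had the largest difference of the 21 tested probe sets, -0.94 (SE 0.155, 95% interval -1.30 to -0.59, adjusted p = 0.0962), which puts the geometric mean of the mutant signals 48.0% below that of the wild-type signals.

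A dimmer probe set of *Tsc22d3*, 1425557_x_at, had signals of 151 and 232 in mutant and 266, 336 and 475 in wild-type skin, again without overlap, and a difference of -0.89 (SE 0.264, adjusted p = 0.316). The suffix of 1425557_x_at marks probes that resemble other sequences, so that its signal may hold more than *Tsc22d3*. The remaining probe set was too dim to test. Since *Tsc22d3* lies on the X chromosome and the sexes were unevenly spread, the single female mutant was also compared with the 3 wild-type females, which alone supply the spread. The difference was then -0.49 at the brightest probe set (adjusted p = 0.564), -0.64 at 1425281_a_at (adjusted p = 0.197) and -0.59 at 1425557_x_at (adjusted p = 0.818), all smaller than with the male mutant included. Without *Clock* mutant replicate 2, the male alone against the wild-type mice gave -0.82 (adjusted p = 0.0484) and -1.25 (adjusted p = 0.00694) at the brighter 2, with the same limit. Sex and animal cannot be told apart within the mutant group.

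*Zbtb16* encodes the transcription factor PLZF, an early glucocorticoid-induced gene in several cell types (Entrez 235320, chr9:48651797-48836225). Its brightest probe set had signals of 4264 and 4587 in mutant and 5067, 4994 and 5763 in wild-type skin. The groups did not overlap, and the difference was -0.25 (SE 0.0864, adjusted p = 0.375). At probe set 1419874_x_at the signals were 1661 and 1628 in mutant and 2889.6, 2546 and 2370.3 in wild-type skin. The mutants were close to each other and well below the lowest wild-type mouse, with a difference of -0.66 (SE 0.0996, 95% interval -0.88 to -0.43) and the lowest adjusted p of the 21, 0.0676. The females alone gave -0.67 (adjusted p = 0.259). The suffix of this probe set marks probes that resemble other sequences, so that its signal may hold more than *Zbtb16*. The last probe set was dim, with overlapping groups, at -0.65 (SE 0.429).

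*Sgk1* encodes a kinase that raises sodium transport through the epithelial channel and responds to both receptors (Entrez 20393, chr10:21882184-21999903). Its signals were 4687 and 5480.2 in mutant and 5889, 7141 and 5474 in wild-type skin. The female mutant lay just above the lowest wild-type mouse, so that the groups overlapped. The difference was -0.27 (SE 0.118, 95% interval -0.54 to -0.01, adjusted p = 0.455), and -0.16 in the females alone (adjusted p = 0.909).

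*Ddit4* encodes REDD1, which holds back mTORC1 and is induced by glucocorticoids, hypoxia and energy stress (Entrez 74747, chr10:59949675-59951770). Its signals were 5074 and 6416 in mutant and 6337, 9026 and 8673 in wild-type skin. Wild-type replicate 1 stood well below the other two and just under the female mutant. The difference was -0.47 (SE 0.154, 95% interval -0.82 to -0.12, adjusted p = 0.366), and -0.30 in the females alone (adjusted p = 0.861).

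**Figure D2:**
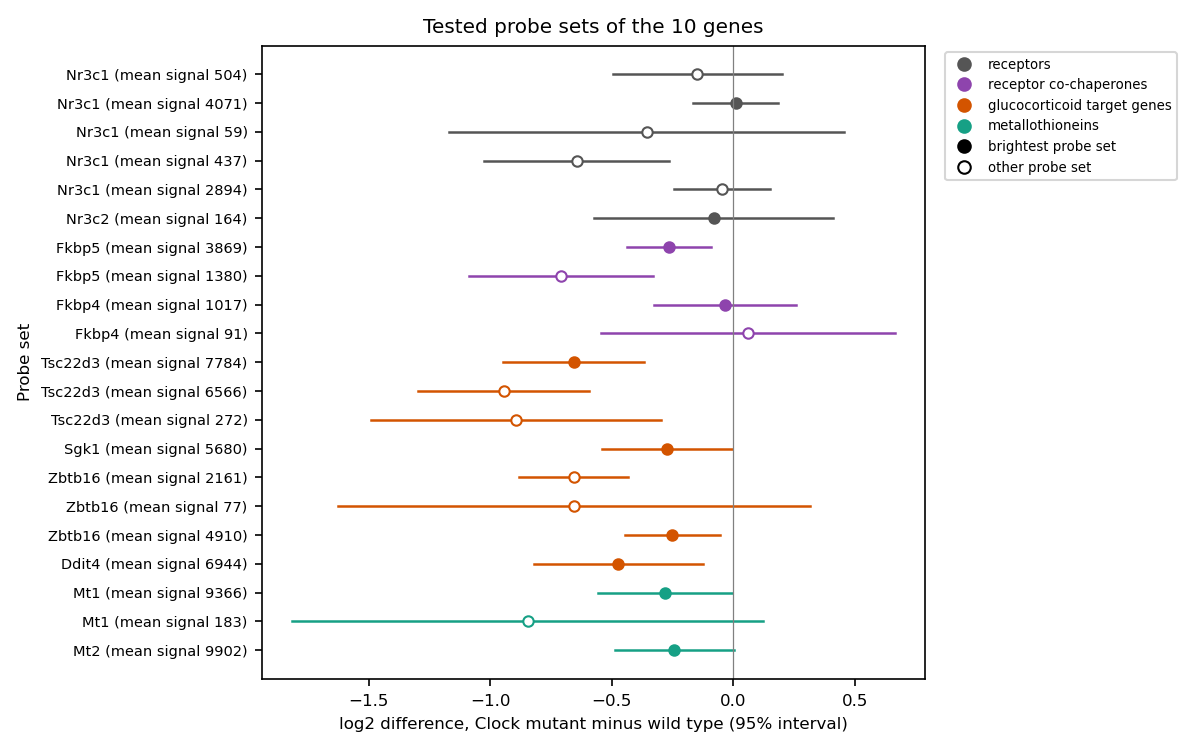
Points are log2 differences, *Clock* mutant minus wild type (horizontal axis), of the 21 tested probe sets (vertical axis, with the mean signal over 5 arrays), bars are 95% intervals from limma, colours give the role of the gene and filled points the brightest probe set of a gene. In total 19 points lie left of 0, and the differences reach from -0.94 at a *Tsc22d3* probe set to 0.06 at a *Fkbp4* probe set.

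*Mt1* (Entrez 17748, chr8:94178883-94180327) and *Mt2* (Entrez 17750, chr8:94172618-94173567) encode metallothioneins, small proteins that bind zinc and copper. Metals induce them through the factor MTF1, and glucocorticoids induce them as well. The genes lie 5316 bases apart, and stretches before their starts are shown because their signals moved together over the arrays. Capitals mark the metal response core, which is on the minus strand at *Mt2*.
*Mt1*: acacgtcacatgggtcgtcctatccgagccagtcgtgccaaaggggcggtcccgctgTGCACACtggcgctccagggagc
*Mt2*: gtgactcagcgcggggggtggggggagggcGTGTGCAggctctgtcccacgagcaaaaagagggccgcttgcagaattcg
Both stretches are from the plus strand (*Mt1*, chr8:94179009-94179088, and *Mt2*, chr8:94172538-94172617), and the cores begin 23 and 50 bases before the start. In neither of the whole windows was a palindrome, a single arm of it or an E-box found.

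*Mt1* had signals of 9281 and 7479.7 in mutant and 8755, 10558 and 11235 in wild-type skin. *Mt2* had signals of 9688 and 8269 in mutant and 9316, 10821 and 11784 in wild-type skin. In both genes the female mutant was the lowest array, the male mutant lay above wild-type replicate 1, and the groups overlapped. The differences were -0.28 (SE 0.122, adjusted p = 0.456) for *Mt1* and -0.24 (SE 0.108, adjusted p = 0.463) for *Mt2*. Their deviations from the wild-type mean differed by at most 0.08 on any array. The suffix of the *Mt1* probe set marks probes that match more than 1 transcript, and how much of the 2 signals is shared was not tested. A second *Mt1* probe set, with signals between 105 and 456, was at -0.85 (SE 0.428, adjusted p = 0.512) with overlapping groups, and at -0.36 without wild-type replicate 3, the array with the signal of 456.

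The order of the mice in the metallothioneins differed from that in *Tsc22d3*, where the male mutant was the lowest. Their median deviation was -0.13 in the male and -0.40 in the female mutant, and -0.20, 0.05 and 0.15 in wild-type replicates 1, 2 and 3. Over 4 tested adipocyte markers the medians on the same arrays were -0.02, -0.34, -0.13, 0.01 and 0.12. Their summed signals were 31226 to 35239 in mutant and 34904 to 39469 in wild-type skin. The single markers differed by -0.36 (*Cidec*), -0.18 (*Fabp4*), -0.04 (*Adipoq*) and 0.12 (*Lep*). Of these *Lep* was dim, with signals between 45.4 and 142, so that a median of 4 is a rough guide. The part of fat cells in the metallothionein values was not tested.

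Genes of the same pathway were described from lists, with the 3 smallest p of each named. The lists were chosen with earlier results of these data known, so that their counts are no independent test against the shares over all genes. Among 18 further glucocorticoid-induced genes 17 had a negative difference, with a median of -0.26. Of these, 10 had an unadjusted p under 0.05 with a lower mutant level (4.78% of all genes), 0 had one with a higher level (5.24%), and 9 did not overlap (12.3%). Again 0 of 18 passed the adjusted threshold. *Errfi1*, a feedback inhibitor of the EGF receptor, had signals of 3792 and 4226 in mutant and 5427, 8916 and 8664 in wild-type skin (-0.90, SE 0.188, adjusted p = 0.181). *Dusp1*, a phosphatase that turns off MAP kinases, had signals of 4627 and 5738 in mutant and 7189, 6649 and 8299 in wild-type skin (-0.51, SE 0.116, adjusted p = 0.218). *Per1*, a clock gene with both E-boxes and a glucocorticoid response element, had signals of 2052 and 2283 in mutant and 2620.0, 3170.4 and 3055 in wild-type skin (-0.44, SE 0.103, adjusted p = 0.23). In all 3 genes both mutants lay below every wild-type mouse. The nearest wild-type mouse was replicate 1 in *Errfi1* and *Per1* and replicate 2 in *Dusp1*.

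Several of these genes also answer to other signals, such as growth factors (*Errfi1*, *Dusp1*), inflammation (*Nfkbia*, *Cebpd*, *Lcn2*) and the clock (*Per1*). *Cebpd* was at -0.77, *Lcn2* at -0.53 and *Nfkbia* at -0.25. *Klf9*, *Cdkn1a* and *Pdk4*, also induced by glucocorticoids, were at -0.09, -0.01 and 0.07. Relative to the wild-type mean the list had a median of -0.33 in the male mutant, -0.19 in the female mutant and -0.15, 0.04 and 0.09 in the wild-type mice, so that wild-type replicate 1 lay close to the female mutant. With the females alone 16 of 18 were negative, with a median of -0.19, and 5 were lower at an unadjusted p under 0.05 (3.88% of all genes). Without wild-type replicate 3 there were also 5 (3.24%), and with each array centred on its median there were 4 (2.26%), with 14 of 18 negative and a median of -0.18.

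**Figure D3:**
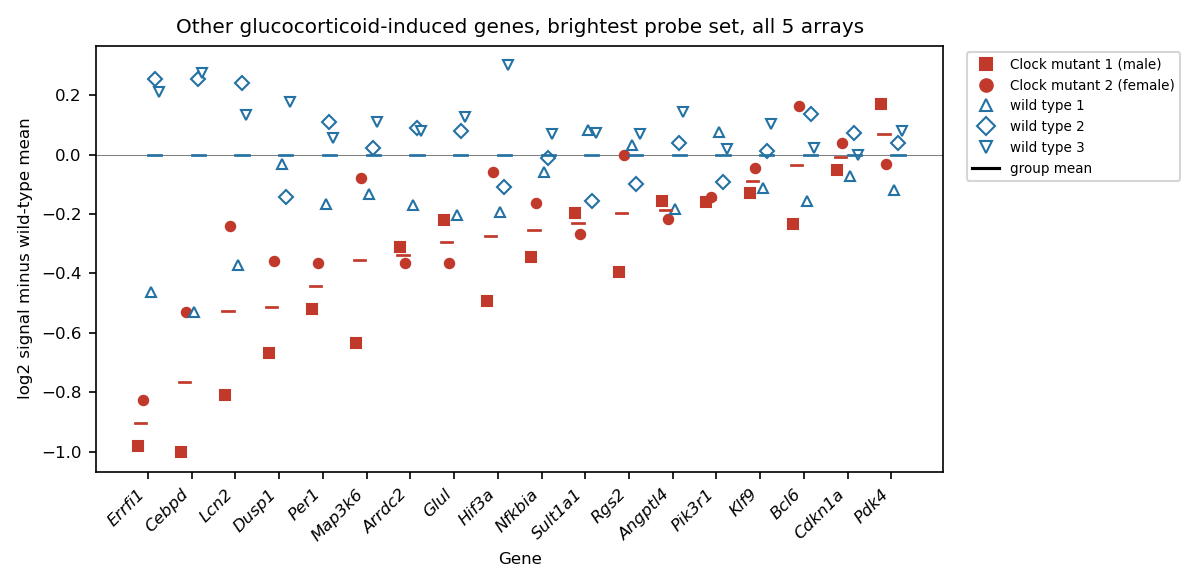
Points give the log2 signal of single arrays relative to the mean of the wild-type arrays (vertical axis) for 18 further glucocorticoid-induced genes ordered by their difference (horizontal axis); filled red points are *Clock* mutant mice (square, male; circle, female), open blue points are wild-type mice and short bars are group means. The bars run from -0.90 for *Errfi1* to 0.07 for *Pdk4*, and in *Cebpd* wild-type replicate 1 (signal 3684) lies just above the female mutant (3681).

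The machinery around the receptor did not go one way. Of 11 tested chaperone genes 6 were negative, with a median of -0.13, where *Hsp90aa1*, the inducible HSP90, was at -0.26 (adjusted p = 0.419), and *St13*, the HSP70-interacting protein, and *Hspa4*, an HSP70 exchange factor, were at 0.21 (adjusted p = 0.42) and 0.20 (adjusted p = 0.458). Of 10 coregulators 7 were negative, with a median of -0.06 and none at an unadjusted p under 0.05. The smallest p among them were those of the arginine methyltransferase *Carm1* (0.12), the coactivator *Ncoa3* (-0.19) and the acetyltransferase *Ep300* (-0.15). Relatives and partners of the members had a median of 0.01 over 20 genes, with 7 negative. FK506-binding proteins of the secretory pathway had the smallest p there, *Fkbp14* at 0.47 (adjusted p = 0.273), *Fkbp7* at 0.32 (adjusted p = 0.395) and *Fkbp11* at 0.53 (adjusted p = 0.461), opposite in sign to *Fkbp5*.

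Genes that set the local supply of glucocorticoid had a median of -0.09 over 7 tested genes, with 5 negative (46.4% of all genes) and 3 lower at an unadjusted p under 0.05 (4.78%). *Hsd11b1*, which regenerates active hormone inside cells and is prominent in fat and fibroblasts, had signals of 1107 and 785 in mutant and 1243, 1205 and 1474 in wild-type skin. Both mutants lay below every wild-type mouse (-0.48, SE 0.154, adjusted p = 0.356). *Mc2r*, the corticotropin receptor, which mouse fat cells also express, had signals of 284 and 261 in mutant and 359, 333 and 387 in wild-type skin (-0.40, SE 0.141, adjusted p = 0.376). *Pomc*, the precursor of corticotropin, was dim, with signals between 33.5 and 100.1 (-0.86, adjusted p = 0.455). As the adipocyte markers had a median of -0.11, the values of *Hsd11b1* and *Mc2r* stand beside theirs, and the part of fat cells in them was not tested.

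Zinc and metal handling genes had a median of 0.03 over 6 genes, with 3 negative. *Mt4*, a metallothionein of stratified epithelia, was opposite in sign to *Mt1* and *Mt2*, with signals of 2180.0 and 2136 in mutant and 1667, 1495 and 1203 in wild-type skin. Both mutants lay above every wild-type mouse (0.58, SE 0.131, adjusted p = 0.216). The zinc exporter *Slc30a1*, an MTF1 target, was at 0.14 (adjusted p = 0.652), and the importer *Slc39a10* at -0.13 (adjusted p = 0.689).

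**Figure D4:**
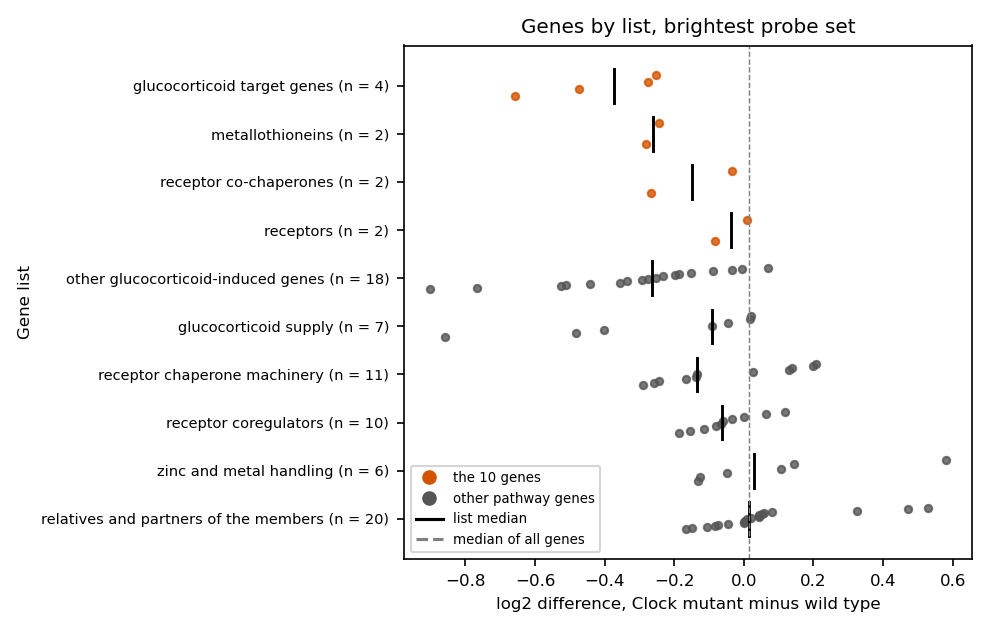
Each point is the log2 difference, *Clock* mutant minus wild type (horizontal axis), of the brightest tested probe set of a gene, for the 10 genes by role (orange) and for further genes of the pathway by list (grey, vertical axis), with black bars at list medians and a dashed line at the median of all 12955 genes. The median of further glucocorticoid-induced genes lies at -0.26, while those of coregulators and of relatives and partners lie at -0.06 and 0.01.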

How the data were processed

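The deposited values, made by the authors, are signal intensities for every probe set on every array. The labels name MAS5, whose version was not given in the sources used here. Each array had a 2% trimmed mean of 500.0. MAS5 values are noisy at low signal, and 5 arrays limit the precision. Signals under 1 were set to 1 and log2 was taken. The 64 control probe sets and those below the 40th percentile of mean log2 signal, which equals a signal of 56.7, were left out. The other 27022 were tested two-sided with limma 3.58.1 in R 4.3.3 (lmFit, then eBayes with a trend on intensity), p-values were adjusted after Benjamini and Hochberg, and the threshold was 0.05. The replicates are separate mice. In 20 runs on simulated arrays with 200 changed probe sets of the 27022, this comparison recovered 8.1% of log2 changes of 0.5, 43.0% of 1 and 81.9% of 2, with 2.4 false calls per run.

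Genes are represented by the brightest of their probe sets with 1 symbol. All probe sets of the 10 genes were named, with the 3 smallest p of each further list. The members and lists were chosen with earlier results of these data known. Gene positions and promoter windows were taken from RefSeq tables of GRCm38.p6. Alternatives were median centring, quantile normalization, a filter at the 60th percentile or none, a pseudocount of 32, eBayes without the trend, a regularised test like that of Cyber-T (101 probe sets per window and a weight of 10), averaging over probe sets, a block for the replicate number, and leaving out each mouse.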

Additional observations from a re-analysis of the deposited data

How the results depend on the processing

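Of 278 comparisons of the 21 probe sets with an alternative, 248 kept their direction and their side of the threshold. Another 12 passed the threshold and 18 changed sign, and 14 probe sets never changed sign. Alternatives that alter only the filter, the intensity trend or the test leave the difference itself as it was. A sign could not change under them, so the count of 248 is in part fixed in advance. Since none of the 21 passed the threshold to begin with, keeping their side meant still not passing. The 24 calls over all probe sets became 10 with no filter, 0 with no intensity trend (2631 at an unadjusted p under 0.05), 337 with the test in the style of Cyber-T and 0 to 201 with 1 mouse left out. Left out in turn, wild-type replicates 2 and 3 gave 0 (1581 and 2194 with an unadjusted p below 0.05), and there were 13 without *Clock* mutant replicate 1 and 201 without *Clock* mutant replicate 2, where the lone mutant is assumed to vary like the wild-type mice. The 148 probe sets at an unadjusted p under 0.001 became 60 with no trend, 400 in the style of Cyber-T and 60 to 377 with 1 mouse left out. Median centring raised all differences by 0.09, moved the median of the 10 genes from -0.26 to -0.17, left 7 of 10 genes negative, and put 29.3% instead of 62.1% of the probe sets at an unadjusted p under 0.05 on the lower side. It left 7 of the 21 lower at that p (3.62% of all). With 1 mouse left out the median lay between -0.30 and -0.21. Under the Cyber-T style 6 of the 21 passed, all lower, against 223 lower and 114 higher of all 27022. The 6 were *Fkbp5* 1448231_at, all 3 tested *Tsc22d3* probe sets, *Zbtb16* 1419874_x_at and *Ddit4*.

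The sign changes lay in *Nr3c1*, *Nr3c2*, *Fkbp4* and *Fkbp5*. *Nr3c1* at its brightest probe set was -0.0142 after quantile normalization, -0.26 as the mean of its probe sets and -0.0487 to 0.0675 with 1 mouse left out, *Nr3c1* 1460303_at was 0.0413 after median centring and -0.139 to 0.0451, and *Nr3c1* 1421866_at -0.339 to 0.0440. *Nr3c2* was 0.0067 after median centring and -0.256 to 0.0172. *Fkbp4* was 0.0551 after median centring and 0.0633 as a mean of probe sets, and -0.0962 to 0.0834, and its second probe set -0.20 to 0.32. *Fkbp5* was 0.44 as a mean of probe sets, which includes the probe set near background. The means of *Nr3c1* and *Fkbp4* also include probe sets too dim to test. The causes were not tested.

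The labels tie replicate numbers to no litter or batch, and same-numbered mice did not deviate together (r = 0.0078 and 0.0986). With the replicate number as a block, which leaves wild-type replicate 3 without a partner, 106 of all 27022 probe sets passed. Of these, 80 were lower and 26 higher, and 269 probe sets had an unadjusted p under 0.001. Of the 21, 3 passed, all lower. These were *Tsc22d3* 1420772_a_at (adjusted p = 0.00958) and 1425281_a_at (adjusted p = 0.00439) and *Zbtb16* 1419874_x_at (adjusted p = 0.0133).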
